A study of Mus musculus with 8 samples.

Results

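The genes described here encode glutamate receptors and the small membrane proteins that travel with them, measured in the dorsal hippocampus of mice. The 29 members are a list of gene names by receptor family, drawn up with earlier results of these data known. They are 4 AMPA receptor subunits, 7 NMDA receptor subunits, 4 kainate receptor subunits, 1 delta receptor, 6 metabotropic receptors, 5 auxiliary subunits of AMPA receptors and 2 of kainate receptors. All 29 were found among the 24498 genes of the deposited table, and 28 had a mean of at least 10 normalized read counts and were tested. Grin3b, a glycine-binding NMDA subunit, was the member below that level.

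Male C57BL/6J mice of 10 to 12 weeks received an adeno-associated virus (AAV2/9) in the dorsal hippocampus. The knockdown vector held a hairpin RNA against Acss2 under the U6 promoter and EGFP under the CMV promoter, and the control vector held EGFP under the CMV promoter alone, so that all groups carried virus, EGFP and the surgery with meloxicam. Acss2 encodes an acetyl-CoA synthetase that uses acetate. About 3 weeks after injection, trained mice met 3 objects during 3 trials, each of 6 min, and were killed 30 min later, while untrained mice belonged to the home cage group. Each of the 4 groups, control untrained, control trained, knockdown untrained and knockdown trained, had 2 libraries of polyadenylated RNA. No label says that each library is 1 mouse, so the spread between libraries, and every p-value built on it, may be partly technical. Infected and uninfected cells were not separated, and no label names the cell types that the virus reached.

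Fast excitatory transmission in the hippocampus runs through AMPA receptors, tetramers of GluA subunits whose channel opens when glutamate binds. NMDA receptors, which need glutamate, a co-agonist and depolarization together, admit calcium and trigger the changes in synaptic strength thought to store object and place memory. Kainate receptors tune release and excitability, metabotropic receptors act through G proteins, and auxiliary subunits such as the TARPs (Cacng genes), cornichons (Cnih genes) and Neto proteins set the gating and surface delivery of the channels. RNA levels say nothing of the number of receptors at synapses.

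Depth, as reads in genes, ran from 6537749 to 9863728 for 6 libraries. The other 2, both with the knockdown vector, were shallow: KD.251 (trained) held 1484318 reads and KD.255 (untrained) 272456. Libraries carry the last part of their column name. A single read was worth 15.6 normalized read counts in KD.255 and 2.88 in KD.251, against 0.444 to 0.659 elsewhere. Acss2 itself stood at 58.2 to 87.4 normalized read counts in control libraries and at 15.6 to 57.7 in knockdown libraries, with 1 read in KD.255. The highest of these, 57.7, was that of KD.251, next to the lowest control value (58.2 in eGFP.254), while the other 3 knockdown libraries lay at 15.6 to 25.6. Knockdown libraries are named here by their labels, KD.251 included, and every direction between vectors rests in part on it. Interferon response genes, summed over 21 genes, came to 525 to 688 in control and 1659 to 7558 in knockdown libraries, with the lowest knockdown value in KD.251. Summed microglia markers (12 genes) came to 1057 to 1288 against 1512 to 2162, and choroid plexus markers (9 genes) were far higher in eGFP.250 (60671) and eGFP.254 (15855) than in the other 6 libraries (258 to 1967). Oligodendrocyte markers had higher mean log2 values with the knockdown vector in 14 of 14 genes (median 0.32, 1 passing edgeR), with overlapping sums of 11526 to 24660 and 18538 to 29510. Inhibitory neuron markers were lower by sign in 15 of 20 genes (median -0.16) and pyramidal and granule cell markers in 14 of 20 (median -0.13). None of these markers was at 0 over all 6 deeper libraries. Their part in the differences between vectors given for receptor genes was not tested. In tissue RNA, fewer cells of a type and less RNA per cell cannot be told apart.

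Levels were compared between genes as normalized read counts per kb of exons (the union of a gene's annotated exons), so that long genes do not rank high by length alone. Gria1, the GluA1 subunit, had the highest level, with 954 ± 133 per kb (mean ± SD over the 8 libraries). Next came Cnih2, a cornichon that binds AMPA receptors, with 526 ± 99.6, and Gria2, the GluA2 subunit that limits calcium entry, with 485 ± 70.5. Grin1, the obligatory NMDA subunit, followed with 248.87 ± 36.5, then the kainate subunit Grik5 (171 ± 74.2), Gria3 (158 ± 24.3) and the metabotropic receptor Grm5 (128 ± 31.9).

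**Figure D1:**
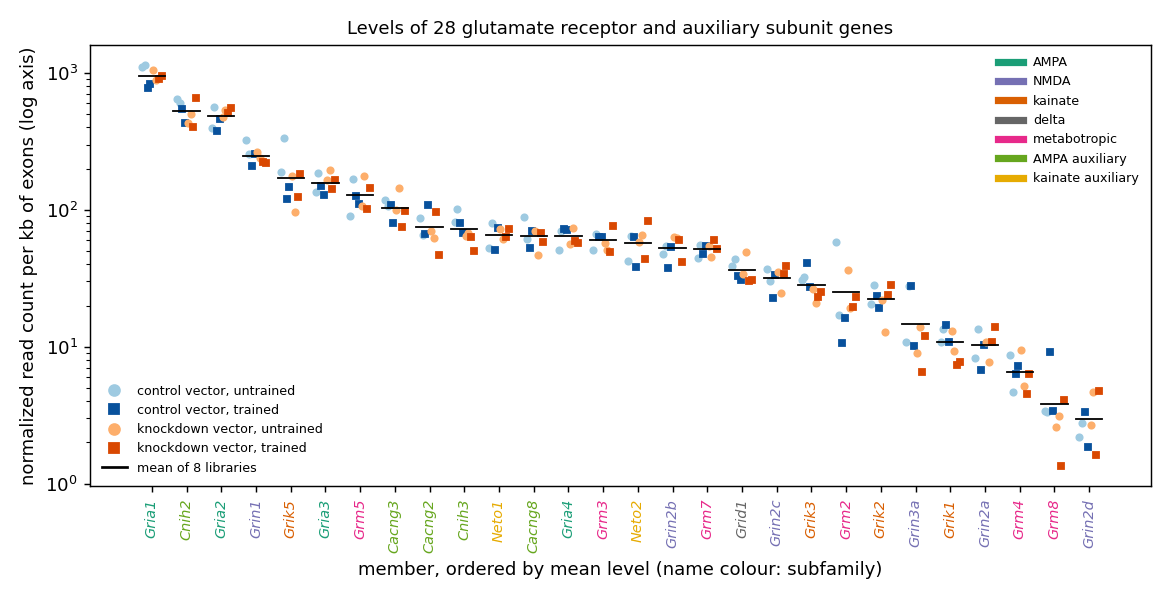
Level per kb of exons (log axis) of the 28 tested members in each of the 8 libraries, ordered by mean. Points are single libraries, coloured by vector and shaped by training, and bars are means of the 8 libraries. The order runs from Gria1 (954 per kb) to Grin2d (2.99 per kb), and neighbours mostly overlap.

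A broad middle group held Cacng3 (104 ± 22.1), Cacng2 (75.5 ± 20.3), Cnih3 (72.1 ± 15.5), Neto1 (65.8 ± 10.5), Cacng8 (64.2 ± 12.9), Gria4 (63.9 ± 8.82), Grm3 (59.8 ± 9.51), Neto2 (57.4 ± 14.9), Grin2b (52.5 ± 9.65) and Grm7 (51.8 ± 5.49), again per kb. Lower levels were those of Grid1 (36.4 ± 7.12), Grin2c (32.0 ± 5.74), Grik3 (28.4 ± 6.33), Grm2 (25.0 ± 15.4), Grik2 (22.3 ± 5.01), Grin3a (14.8 ± 8.39), Grik1 (10.9 ± 2.69) and Grin2a (10.3 ± 2.59). The lowest were Grm4 (6.56 ± 1.83), Grm8 (3.81 ± 2.3005), Grin2d (2.99 ± 1.20) and Grin3b, for which no library had more than 4 reads. In this order only 3 of the 28 pairs of neighbours were separate in the sense that the lowest library of one lay above the highest library of the next. These were Gria1 above Cnih2, Gria2 above Grin1, and Grin2d above Grin3b. With the length of the longest annotated transcript in place of the exon union, Gria2 ranked above Cnih2 and Grin1 did too, and 1 of the 29 members moved by more than 3 places.

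No member passed in any of the 7 comparisons (limma, p adjusted by Benjamini-Hochberg over the 12681 tested genes, threshold 0.05), nor by edgeR or DESeq2 on the recovered reads. For the knockdown vector against the control vector, averaged over training, 0 of 28 members passed, where 0.103% of all tested genes passed by limma, 0.962% by edgeR and 1.54% by DESeq2. For training averaged over vectors the shares over all genes were 0%, 0% and 0.0631%. They were 0%, 0.181% and 0.434% for the vectors in untrained mice, 0.00789%, 0.0315% and 0.26% in trained mice, and 0%, 0% and 0.0315% for training with the control vector. For training with the knockdown vector and for the interaction all 3 tools passed 0% of genes. At such low shares a count of 0 among 28 genes does not set the family apart.

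At an unadjusted limma p under 0.05, 2 members (Grik3 and Cnih3, both lower) stood in the averaged vector comparison, against 5.59% of all genes, and 1 (Grid1, lower) in averaged training, against 4.86%. The counts were 1 in the vector comparison in untrained mice (Grik5, background 4.5%), 0 in trained mice (2.36%), 3 for training with the control vector (Gria1, Grik5 and Grm2, background 1.43%), 0 for training with the knockdown vector (4.48%) and 0 for the interaction (0.883%). These genes were picked out after their values were seen. The intervals show what the 4 against 4 libraries could resolve. In the averaged vector comparison the 95% interval of 23 of the 28 members lay within a 2-fold change in either direction, and that of 12 members within 1.5-fold; both counts were the same for averaged training. With 2 libraries against 2 the median half-width of the interval was 0.63 on the log2 scale, against 0.44 in the averaged comparisons.

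**Figure D2:**
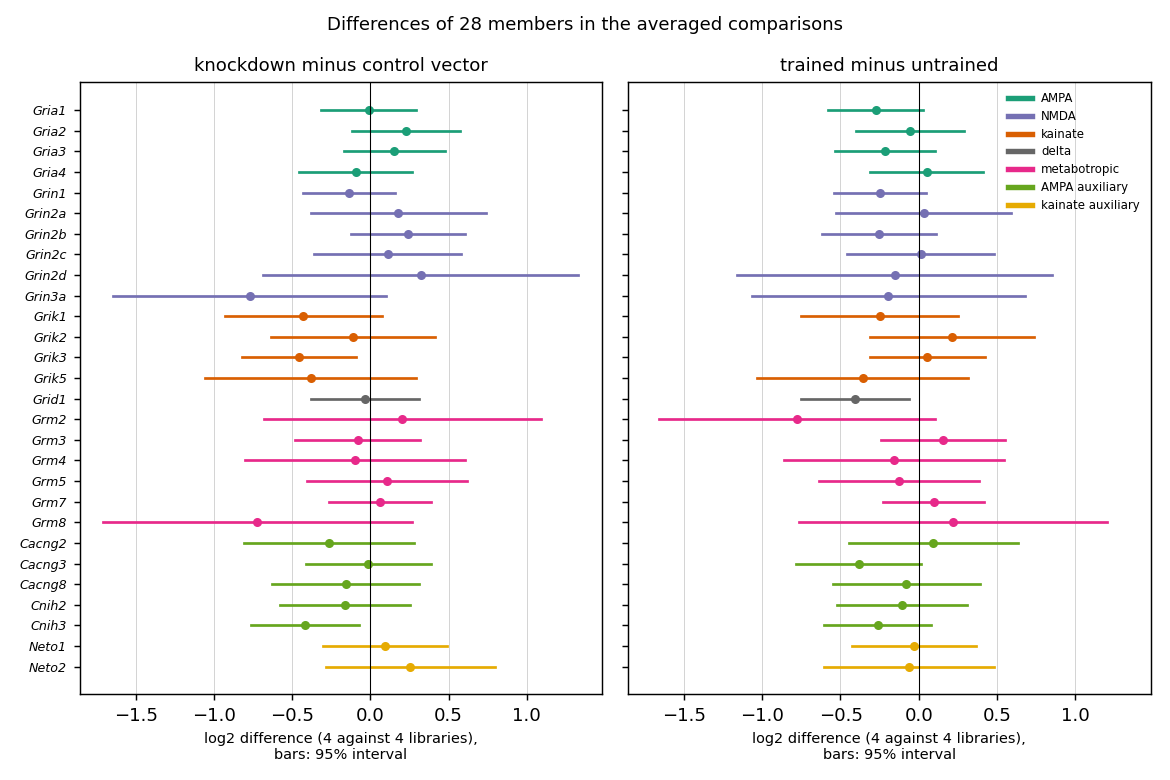
Log2 difference of each of the 28 tested members for knockdown minus control vector (left) and trained minus untrained (right), each averaged over the other factor. Points are limma estimates on log2(normalized read count + 1) and bars are 95% intervals; at left only Grik3 and Cnih3, and at right only Grid1, have intervals that do not reach 0, and none passes after adjustment.

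Gria1 and Gria2 were the most abundant channel genes, and none of the 4 AMPA subunits passed between vectors. Gria1 (chromosome 11, 57011387 to 57330244 on GRCm38, plus strand) had 6661 (eGFP.254) and 6944 (eGFP.268) normalized read counts in untrained controls, and 4680.0 (eGFP.250) and 5006 (eGFP.266) in trained controls. Knockdown values were 6319 (KD.253) and 5350.1 (KD.255) in untrained mice, then 5435 (KD.249) and 5720.3 (KD.251) in trained mice. Values of other members follow the same order of libraries. The knockdown values lay between the high untrained controls and the low trained controls.

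For Gria1 the averaged vector difference on the log2 scale was -0.01 (SE 0.14, 95% interval -0.31 to 0.29, limma adjusted p = 0.997). With the control vector both trained libraries lay below both untrained ones, a log2 difference of -0.49 (SE 0.19, limma adjusted p = 1.00), which did not pass; 28.8% of all genes had such a separation of 2 against 2 libraries in that comparison. In that comparison 18 of 20 pyramidal and granule cell markers were lower by sign (median -0.43). Oligodendrocyte markers were higher by sign in 14 of 14 genes (median 0.68) and choroid plexus markers in 9 of 9 (median 1.34). The part of these markers was not tested. This Gria1 difference lay outside the rule for named genes and was chosen after its value was seen. With the knockdown vector the trained and untrained values of Gria1 overlapped.

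Gria2 ranged from 5890.5 to 8777 in control libraries and from 7462 to 8591 in knockdown libraries. Its averaged log2 vector difference was 0.23 (SE 0.15, interval -0.11 to 0.57, limma adjusted p = 0.873), and for training it was -0.06 (SE 0.15, adjusted p = 0.958). Gria3, on the X chromosome, ranged from 1261 to 1847 in controls and from 1394 to 1929 in knockdown libraries (log2 difference 0.15, SE 0.14, adjusted p = 0.873). Gria4, which is prominent in interneurons, ranged from 323 to 456 and from 356 to 467. The level of Gria1 per kb was 1.80 to 2.80 times that of Gria2 in control libraries and 1.64 to 2.18 times in knockdown libraries, so that this ratio overlapped between vectors. Its size depends on the length used. With the longest transcript as the length, the means over the 8 libraries were closer, at 1039 per kb for Gria1 and 727 for Gria2.

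The 5 AMPA receptor auxiliary members all had lower mean log2 values with the knockdown vector, with a median difference of -0.16, against -0.03 over all tested genes. Cacng3 differed by only -0.01 and changed sign with 1 library left out. Without the 2 shallow libraries Cacng2 and Cacng8 stood at 0.04 and 0.04. None of the 5 passed. Of the 26 tested further receptor and auxiliary genes outside the member list, 16 were lower and 10 higher by sign (median -0.09). Summed normalized read counts of the 5 members were 1748 to 2122 in control and 1596 to 1726 in knockdown libraries. Per kb, where Cnih2 weighs more, the sums overlapped (755 to 1018 against 708 to 906). Cnih3, a cornichon (chromosome 1, 181352628 to 181460641, plus strand), had 224 and 280.3 in untrained and 219 and 186 in trained control libraries. In knockdown libraries it had 176 and 187 without training and 176 and 138 with it. The value in KD.255 was 12 reads. Means were 227 ± 39.1 in control and 169 ± 21.1 in knockdown libraries (SD, n = 4 each), and the groups touched, since KD.255 (186.6) lay just above eGFP.266 (186.1).

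The averaged vector difference of Cnih3 was -0.42 (SE 0.15, interval -0.76 to -0.07, limma adjusted p = 0.793, edgeR adjusted p = 0.511), and with only the 6 libraries whose column numbers are below 260 it was -0.40; without KD.251 it was -0.36. Cnih2, the more abundant cornichon, ranged from 587 to 879 in control and from 556 to 894 in knockdown libraries. The TARP genes Cacng2 (stargazin), Cacng3 and Cacng8 ranged from 362 to 597, 224 to 329 and 123 to 207 in controls, and from 260 to 533, 207 to 404 and 109 to 165 in knockdown libraries. Cacng3 was the third-ranked member by size in averaged training, with a log2 difference of -0.38 (SE 0.18, limma adjusted p = 0.873). Its trained and untrained libraries overlapped, and the difference was -0.25 without KD.255.

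Of the NMDA receptor genes, Grin1 had 3148 and 2486 in untrained and 2019 and 2497 in trained control libraries, and 2557 and 2302 in untrained and 2163 and 2140.4 in trained knockdown libraries. Its averaged log2 differences were -0.13 (SE 0.13, interval -0.43 to 0.16) between vectors and -0.25 (SE 0.13, interval -0.54 to 0.05) for training, with limma adjusted p = 0.875 and 0.873. Both intervals of Grin1 lay within a 1.5-fold change in either direction. Grin2b, whose GluN2B subunit gives slow, calcium-rich currents, ranged from 928 to 1354 in control and from 1038 to 1565 in knockdown libraries (log2 difference 0.24, SE 0.16, interval -0.12 to 0.60, adjusted p = 0.873). The overlap came from KD.251 (1038), while the other knockdown libraries had 1504 to 1565, above every control. Grin2a, the GluN2A subunit that gives faster currents, ranged from 121 to 242 and from 140.0 to 250.97. The ratio of Grin2a to Grin2b per kb was 0.18 to 0.25 in control libraries and 0.12 to 0.33 in knockdown libraries, with the lowest value in KD.255, where Grin2a had 9 reads. Grin2c, often found in astrocytes and some interneurons, ranged from 114 to 185 and from 124 to 196. Grin2d, an interneuron-rich subunit, ranged from 12.4 to 22.2 normalized read counts in control and from 10.7 to 31.7 in knockdown libraries. It rested on few reads, 25 to 43 in each control library and 2 in KD.255, where these 2 reads gave 31.1. Its averaged log2 vector difference, the largest positive one among members, was 0.32 (SE 0.45, limma adjusted p = 0.913).

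Grin3a, a glycine-binding subunit that lowers calcium entry (chromosome 4, 49661611 to 49845744, minus strand), had the largest averaged vector difference of all members, -0.77 (SE 0.39, interval -1.64 to 0.10), without passing (adjusted p = 0.873 by limma and 0.456 by edgeR). It had 132 and 342 in untrained and 343 and 124 in trained control libraries, and 111 and 171 in untrained and 79.8 and 147 in trained knockdown libraries. So 1 library of each control group (eGFP.268 and eGFP.250) stood far above the other 6, and the remaining controls lay among the knockdown libraries. The log2 difference was -0.53 without eGFP.268, -0.45 without eGFP.250, -0.92 without KD.251 and -1.14 without the 2 shallow libraries.

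Grin3a is known in the hippocampus for its high level in somatostatin interneurons, and summed inhibitory neuron markers (20 genes) were 7324 and 7895 in those 2 control libraries. They were 6419 and 5554 in the other controls, and 6276, 8709, 5065 and 6790 with the knockdown vector, so that the vectors overlapped. Sst, the somatostatin gene, was 1164 in eGFP.268 and 1776 in eGFP.250. It was 1557 and 1238 in the other controls, and 1441, 2691, 1201 and 1125 with the knockdown vector. The part of interneuron content in the Grin3a values was not tested.

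**Figure D3:**
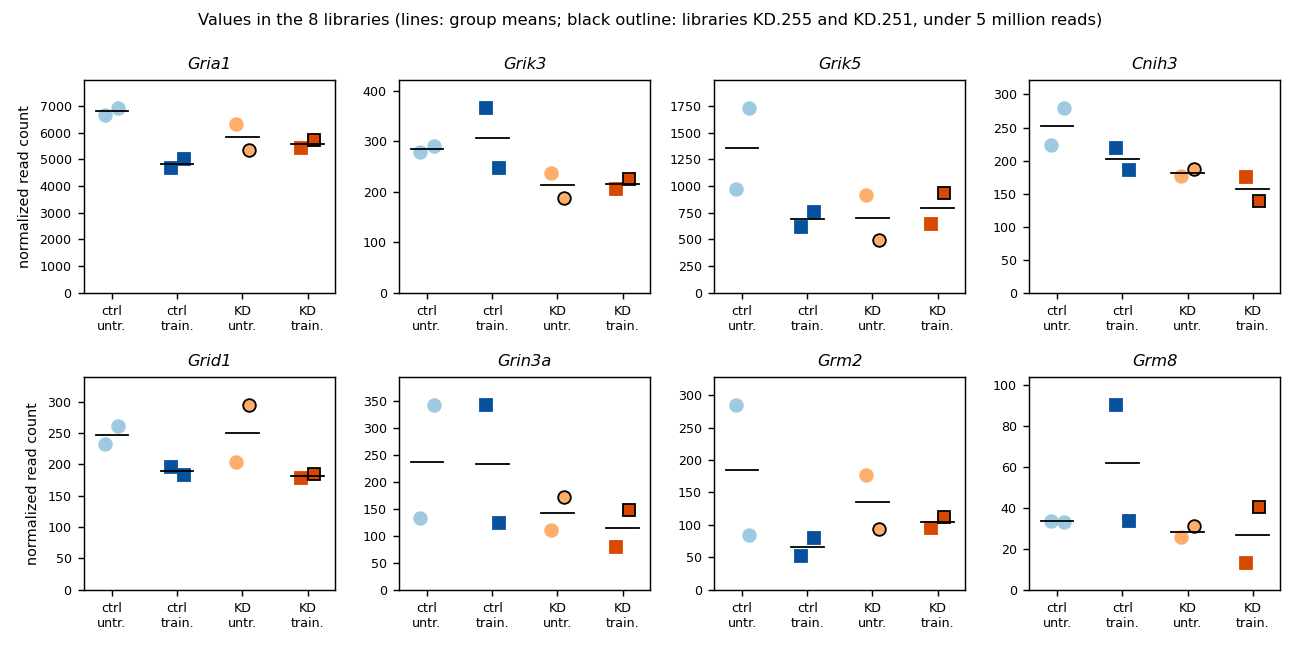
Normalized read counts of 8 members in each library, by group (ctrl: control vector, KD: knockdown vector, untr.: untrained, train.: trained; axes start at 0). Points are libraries, lines are means of 2 libraries, and outlined points are the shallow libraries KD.255 and KD.251; Grik3 lies lower in all 4 knockdown libraries, Grid1 in all 4 trained libraries, and Grin3a, Grm2 and Grm8 each have 1 or 2 control libraries far above the rest.

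All 4 kainate receptor subunits of the member list had lower mean log2 values with the knockdown vector. Their median was -0.41 against -0.03 over all tested genes, but Grik2 stood at 0.005 by edgeR and 0.02 without the 2 shallow libraries. Of the 4, 0 passed. Grik4, a kainate subunit outside the member list, had 200, 191, 114 and 202 in control and 190, 124, 180 and 159 in knockdown libraries, which overlapped. The oligodendrocyte, microglia, interferon and neuron markers given above also had different medians between these vectors, and their part was not tested. Grik3 (chromosome 4, 125490700 to 125714173, plus strand), a low-affinity kainate subunit, was the single member of 28 whose 4 control and 4 knockdown libraries did not overlap, where 4.26% of all tested genes showed such a separation. It had 278 and 290.5 in untrained and 367 and 247 in trained control libraries, and 238 and 187 in untrained and 206 and 225 in trained knockdown libraries. The closest pair was eGFP.266 (247, 516 reads) and KD.253 (238, 361 reads), and KD.255 held 12 reads.

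Means of Grik3 were 295 ± 50.8 and 214 ± 22.4 (SD, n = 4 each). The log2 difference was -0.46 (SE 0.16, interval -0.82 to -0.09, limma adjusted p = 0.784, edgeR adjusted p = 0.486). It stood at -0.48 without KD.251, at -0.40 without the 2 shallow libraries and at -0.58 with only library numbers below 260. Grik1, a subunit typical of interneurons, had 73.3 and 91.4 in untrained and 97.7 and 72.2 in trained control libraries, and 88.3 and 62.2 in untrained and 49.6 and 51.9 in trained knockdown libraries. Its averaged vector difference was -0.43 (SE 0.22, adjusted p = 0.873), and the vectors overlapped.

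Grik5, which encodes the high-affinity GluK5 subunit and needs a low-affinity partner to form a channel (chromosome 7, 25009849 to 25072346, minus strand), varied most within this subfamily. It had 972 and 1735 in untrained and 619 and 756 in trained control libraries, and 911 and 498 in untrained and 643 and 938 in trained knockdown libraries. The library eGFP.268 alone exceeded 1000 normalized read counts. With the control vector Grik5 had a log2 training difference of -0.92 (SE 0.36, limma adjusted p = 1.00), and in untrained mice a vector difference of -0.95 (SE 0.36, limma adjusted p = 0.816). Without eGFP.268 these were -0.51 and -0.53, and without KD.255 the second was -0.51. Pyramidal and granule cell markers were lower by sign in 18 of 20 genes in both comparisons (medians -0.43 and -0.38). Oligodendrocyte markers were higher by sign in 14 of 14 genes in both (medians 0.68 and 0.54). Choroid plexus markers were higher in 9 of 9 genes in the training comparison (median 1.34) and lower in 9 of 9 between vectors (median -1.60). The part of these markers was not tested. The interaction of Grik5, the largest among members, was 1.13 (SE 0.51, limma adjusted p = 1.00), and 0.71 without eGFP.268 or 0.69 without KD.255.

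Grik2, the GluK2 subunit of mossy fibre synapses, ranged from 253.07 to 376 in control and from 171 to 372 in knockdown libraries, with a log2 vector difference of -0.11 (SE 0.23, adjusted p = 0.957). In knockdown mice both trained values (316 and 372) exceeded both untrained ones (292 and 171, the latter from 11 reads), a difference of 0.61 (SE 0.30, limma adjusted p = 0.802) that stood at 0.23 without KD.255. Of the kainate auxiliary genes, Neto1, which slows kainate receptor gating, ranged from 424 to 672 and from 513 to 606 (log2 vector difference 0.09, SE 0.18, adjusted p = 0.945), and Neto2 from 236 to 396 and from 267 to 505. The ratio of Neto1 to Neto2 per kb ran from 0.80 to 1.91 in controls and from 0.88 to 1.46 in knockdown libraries.

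Grid1, the delta receptor that links to presynaptic neurexins through cerebellins (chromosome 14, 34820108 to 35583379, plus strand), was the single member of 28 whose 4 trained and 4 untrained libraries did not overlap, against 3.26% of all tested genes. It had 233 and 262 in untrained and 196 and 184 in trained control libraries. In knockdown libraries it had 204 and 295 without training (19 reads in the latter) and 179 and 185 with it. The averaged training difference was -0.40 (SE 0.15, interval -0.75 to -0.06, limma adjusted p = 0.873, edgeR adjusted p = 0.719), and it was -0.31 without the 2 shallow libraries. Between vectors Grid1 differed by -0.03 (SE 0.15, interval -0.38 to 0.31, limma adjusted p = 0.985). Oligodendrocyte markers had higher mean log2 values in trained libraries in 14 of 14 genes (median 0.48, 0 passing). Their sums overlapped, at 11526 to 19565 in untrained and 19035 to 29510 in trained libraries. Their part in the Grid1 values was not tested.

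Among the metabotropic receptors, Grm5, the main Gq-coupled receptor of pyramidal cells, was the most abundant, with 924 and 1709 in untrained and 1292 and 1122 in trained control libraries, and 1098 and 1820 in untrained and 1044 and 1474 in trained knockdown libraries. Values of different groups were thoroughly mixed. The Gi-coupled receptors Grm3, found in astrocytes among other cells, and Grm7 and Grm4, both presynaptic, ranged from 156 to 203, 264 to 328 and 27.9 to 52.3 in control libraries, and from 149 to 234, 264 to 353 and 27.1 to 56.7 in knockdown libraries. Grm7, which sits at active zones and has low affinity for glutamate, was the steadiest member, with a coefficient of variation of 10.6% over the 6 deeper libraries. The median coefficient over those libraries was 18.7% for the 28 members and 18.5% for all tested genes.

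Grm2, a presynaptic receptor rich in dentate granule cells (chromosome 9, 106643095 to 106656082, minus strand), was among the least steady, at 67.8%. It had 286 and 83.8 in untrained and 52.2 and 79.9 in trained control libraries, and 177 and 93.3 in untrained and 95.7 and 113 in trained knockdown libraries. High values were those of eGFP.254 and KD.253, both untrained, while the other untrained libraries lay among the trained ones. Grm2 had the largest averaged training difference, -0.78 (SE 0.40, interval -1.66 to 0.11, limma adjusted p = 0.873, edgeR adjusted p = 0.710), which stood at -0.33 without eGFP.254. With the control vector it was -1.25 (SE 0.54, limma adjusted p = 1.00), and -0.37 without eGFP.254 but -2.13 without eGFP.268.

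Beside Grm2, the summed list of 20 pyramidal and granule cell markers was 40331 in eGFP.254 and 35090 in KD.253, the high libraries. It was 40307 and 34262 in the other untrained libraries, 31035 and 31762 in trained controls, and 29969 and 35057 in trained knockdown libraries. Camk2a alone gave 29279 of the sum in eGFP.254 and 30463 in eGFP.268, so the sum says little of granule cells. Prox1, a granule cell marker of the list, had 1005 and 587 in untrained and 330 and 750 in trained controls. In knockdown libraries it had 935 and 575 without training and 957 and 793 with it. C1ql2, another such marker, had 690, 372, 179 and 382 in control and 381, 124, 426 and 418 in knockdown libraries, in the same order. Not all genes of the list were highest in eGFP.254. Calb1 had 367, 651, 655 and 362 in control and 341, 513, 416 and 586 in knockdown libraries. Dsp was highest in KD.249 (1048), with 677 in eGFP.254 and 630 in KD.253. Lct was highest in KD.251 (464), with 311 in eGFP.254 and 285 in KD.253. The part of granule cell content in the Grm2 values was not tested.

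Grm8, a high-affinity presynaptic receptor (chromosome 6, 27275119 to 28135178, minus strand), rested on few reads. It had 33.7 and 33.3 in untrained and 90.5 and 33.5 in trained control libraries, and 25.7 and 31.1 in untrained and 13.3 and 40.4 in trained knockdown libraries, the last pair from 26 and 14 reads and the 31.1 from 2 reads. The high library, eGFP.250, also held the highest choroid plexus sum; what part this has in Grm8 was not tested. The vector difference in trained mice was -1.21 (SE 0.62, limma adjusted p = 1.00), with -0.50 without eGFP.250 and -0.44 without KD.249. Averaged over training it was -0.72 (SE 0.44, adjusted p = 0.873), with -0.34 without eGFP.250, -0.32 without KD.249 and -0.93 without KD.251.

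Taking the 16 ionotropic members together as a sum per kb, AMPA subunits made up 70.0% to 71.9% in control and 72.7% to 75.8% in knockdown libraries. Grik4, a kainate subunit outside the member list, was left out of the sum. The vectors did not overlap in the AMPA share, which was among several sums, shares and ratios looked at. Of single tested genes 4.26% showed such a separation, and no background was computed for shares. The highest value, 75.8%, was that of the shallow library KD.255. NMDA subunits made up 13.7% to 17.9% and 14.3% to 15.99%, kainate subunits 9.75% to 14.6% and 6.23% to 10.4%, and the delta receptor 1.48% to 1.72% and 1.33% to 2.22%. The margin in the AMPA share was 71.9% in eGFP.250 against 72.7% in KD.253. With the longest transcript as the length, the AMPA share was 63.4% to 66.9% in control and 67.6% to 71.3% in knockdown libraries, again without overlap. These shares combine genes chosen with earlier results known and carry no test, and a share of a sum is lower in one subfamily when another is higher. In absolute terms the AMPA sum per kb overlapped, at 1376 to 1971 in control and 1612 to 1746 in knockdown libraries.

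**Figure D4:**
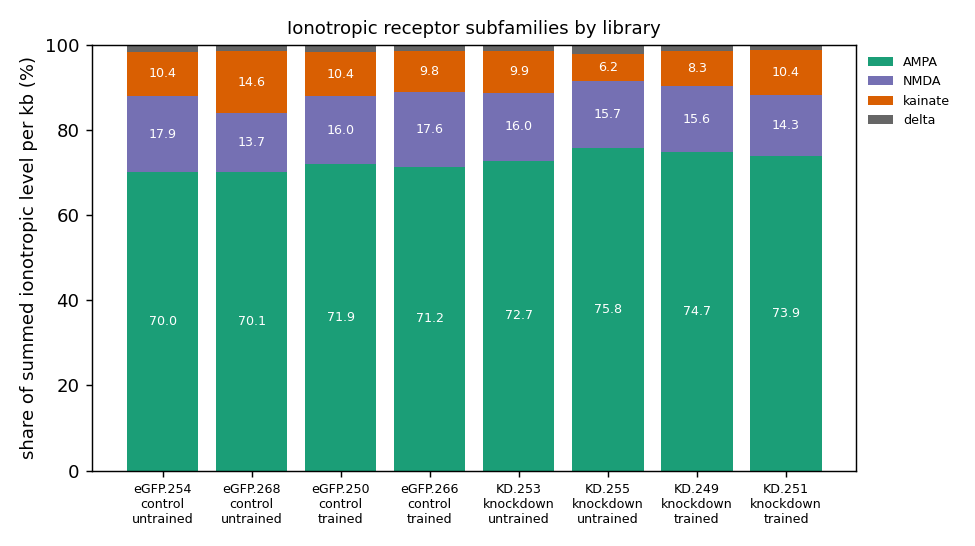
Share of the summed level per kb of the 16 ionotropic members held by AMPA, NMDA, kainate and delta subunits in each library. Each bar is 1 library and adds to 100%; the AMPA share runs from 70.0% to 71.9% in the 4 control libraries and from 72.7% to 75.8% in the 4 knockdown libraries.

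Subfamilies differed in their median log2 vector difference, from -0.41 for kainate and -0.16 for AMPA auxiliary subunits to 0.07 for AMPA, 0.14 for NMDA and 0.17 for kainate auxiliary subunits, with -0.01 for metabotropic receptors. The median over all 28 members was -0.06 (range -0.77 to 0.32) and over all tested genes -0.03. For averaged training the medians were -0.17 for NMDA, -0.14 for AMPA, -0.11 for AMPA auxiliary, -0.10 for kainate, -0.05 for kainate auxiliary and -0.01 for metabotropic genes. Over the 28 members the median was -0.12, with 19 of 28 lower by sign, against 0.03 over all genes with 5694 of 12681 lower. Medians over 2 to 6 genes rest on few members and were not tested against each other.

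In untrained mice 18 of 28 members were lower by sign with the knockdown vector (median -0.16), against 7003 of the 12681 tested genes (median -0.05), and 7 of 28 had libraries that did not overlap between vectors, where 31.1% of all genes did. In trained mice 16 were higher by sign (median 0.07), against 6251 of all genes (median -0.005), and 11 did not overlap, against 29.2%. Training with the control vector had 19 lower by sign (median -0.18), against 6071 of all genes (median 0.01), and 7 without overlap, against 28.8%. With the knockdown vector it had 16 lower by sign (median -0.11), against 5823 of all genes (median 0.04), and 7 without overlap, against 30.4%. None of these counts was tested against the rest. The comparisons in untrained mice and in control mice share the 2 untrained control libraries. For the interaction the median over members was 0.05. The largest values after Grik5 were -0.97 for Grm8 (SE 0.87) and 0.94 for Grm2 (SE 0.77), both with limma adjusted p = 1.00. That of Grm8 was -0.27 without eGFP.250 and -0.20 without KD.249, and that of Grm2 was 0.06 without eGFP.254 and 0.48 without KD.255.

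The other members among the 3 largest within a state also failed to pass. Grin3a differed by -0.92 (SE 0.57) between vectors in trained mice and by -0.62 (SE 0.57) in untrained mice, with limma adjusted p = 1.00 and 0.866. In trained mice it was -0.20 without eGFP.250 and -0.49 without KD.249, and in untrained mice 0.06 without eGFP.268 and -0.31 without KD.253. Grik1 differed by -0.72 (SE 0.32) between vectors in trained mice and by -0.54 (SE 0.32) with training in knockdown mice, with limma adjusted p = 1.00 and 0.802, and the latter was -0.29 without KD.253. Grik2 differed by -0.52 (SE 0.30) between vectors in untrained mice (limma adjusted p = 0.816), and by -0.13 without KD.255. Cacng3 differed by -0.50 (SE 0.27) with training in knockdown mice, with -0.23 without KD.255 and -0.31 without KD.249, and Grm8 by 0.70 (SE 0.62) with training in control mice (limma adjusted p = 0.802 and 1.00). Without eGFP.250 that Grm8 difference was -0.00041.

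Genes that work with these receptors were counted from lists by role. Of 26 tested further receptor and auxiliary genes, 25 scaffold and trafficking genes, 12 genes of glutamate supply and clearance and 14 of metabotropic signalling, 0 passed limma or edgeR in any of the 7 comparisons. Their median log2 vector differences were -0.09, -0.09, -0.08 and 0.03.

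The 2 largest of each list by size are given. Among the further receptor and auxiliary genes, Nptx2, a pentraxin that clusters AMPA receptors, differed between vectors by 0.90 (SE 0.28), with a mean of 158 in knockdown and 78.9 in control libraries (limma adjusted p = 0.596, edgeR 0.201), and Cbln4, a cerebellin, by -0.63 (-0.14 without eGFP.250). The scaffold Homer1, which links Grm5 to the synapse, differed by 0.45 (SE 0.15, means of 1092 and 797, limma adjusted p = 0.709), and Grip2 by -0.33 (-0.07 without KD.249). Values are per gene, so transcript forms of Homer1 were not told apart. Immediate early genes, a list with Fos, Arc and Egr1, were higher by sign with the knockdown vector in 15 of 15 tested genes (median 0.51, 0 passing). Their part in the Nptx2 and Homer1 values was not tested. The vesicular transporter Slc17a6 had the largest vector difference of the 4 lists, -1.08 (SE 0.70, limma adjusted p = 0.873), but it was -0.22 without KD.249. Its relative Slc17a7 differed by -0.26 (-0.04 without KD.255). Adcy1, a calcium-stimulated adenylyl cyclase, differed by 0.43 (SE 0.18, limma adjusted p = 0.873), and Trpc1 by 0.34 (0.17 without KD.255).

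For averaged training Slc17a6 again differed most, by 0.73 (SE 0.70), with values from 0.29 without KD.251 to 1.59 without KD.249. The TARP relative Cacng7 differed by -0.69 (SE 0.21), with means of 151 and 245 in trained and untrained libraries, and the scaffold Shank1 by -0.60 (SE 0.16, means of 2404 and 3671), both with limma adjusted p = 0.873 and edgeR adjusted p = 0.710. Cacng5 differed by -0.68 (-0.23 without KD.255), Dlgap3 by -0.36 (-0.16 without eGFP.254), Slc1a4 by -0.48, Ncdn by -0.46 (-0.27 without eGFP.254) and Plcb4 by 0.32 (0.16 without eGFP.268). None of these passed.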

How the data were processed

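Polyadenylated RNA of 8 libraries in 4 groups was measured. Per the submitters' processing notes, the tools include STAR 2.3.0, HTSeq 0.6.1 and DESeq, with build mm10; annotation and strand setting: not given in the sources used here. Values deposited by the authors are a normalized signal per gene, and 100% of values were whole multiples of what 1 read is worth in their library (relative tolerance 1e-06), that is, read counts divided by 1 size factor. They are called normalized read counts. The 5 summary entries (34.5% to 39.5% of reads per library) were left out, leaving 24498 genes. Without molecular identifiers, reads are not independent molecules.

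The main test was limma 3.58.1 (R 4.3.3) with an intensity trend on log2(normalized read count + 1), for 12681 genes with a mean of at least 10; all 4 groups shared 1 spread, and averages came from an additive model. Benjamini-Hochberg adjustment ran over all tested genes, with a threshold of 0.05. The 95% intervals use limma's moderated error. edgeR 4.0.16 (quasi-likelihood) and DESeq2 1.42.0 were run on the recovered reads, and the fits were tested on simulated data. The added 1 narrows log2 differences of genes with low values. Estimates could still exceed those of the count tests, as for Grin2d between averaged vectors (0.32 by limma, 0.13 by edgeR and 0.16 by DESeq2). Exon lengths and coordinates came from GENCODE M21 (GRCm38, the build of mm10). Members and gene lists were chosen with earlier results of these data known. Differences are given for the 3 members with the largest size in each comparison and, in averaged comparisons, for others; each list's 2 largest genes were ranked by size.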

Additional observations from a re-analysis of the deposited data

Results flagged for a closer look

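Each of the 28 tested members was looked at in the 4 libraries of each vector and of each training state, 112 sets of 4 in all, for a library set far from the other 3 (Dixon's ratio of gap to range above its 95% critical value). Chance alone marks about 1 in 20 such sets, and 5 were marked here. Gria4 had 323 normalized read counts in eGFP.254, below the other control libraries (444 to 456), and 467 in KD.255 (30 reads), above the other knockdown libraries (356 to 373). Grin2b had 1038 in KD.251, below the other knockdown libraries (1504 to 1565). Grm2 had 286 in eGFP.254, above the other control libraries (52.2 to 83.8). Grm8 had 90.5 in eGFP.250, above the other control libraries (33.3 to 33.7).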

How the results depend on the processing

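In every one of the 7 comparisons the number of members passing was 0 under each of the alternatives run for it: edgeR, DESeq2, TMM scaling, pseudocounts of 0.5 and 5, no filter or a mean of at least 50, only the groups compared, each library left out, both shallow libraries left out, column numbers below against above 260 as a term, only numbers below 260, and edgeR without the shallow libraries (added after the data were seen). Fits with only the groups compared were not run for the averaged comparisons and the interaction. The smallest adjusted p of any member was 0.0528 (Grik5, vectors in untrained mice, limma without KD.253, where its group held KD.255 alone, assumed to vary like the others, and 1293 of all genes passed). Over all genes the number passing ranged from 0 to 232 for averaged vectors (main 13), 0 to 8 for averaged training (0), 0 to 1293 and 0 to 94 for vectors in untrained (0) and trained mice (1), 0 to 4 and 0 to 1242 for training with the control (0) and knockdown vector (0), and 0 to 710 for the interaction (0). Without KD.251, 100 genes passed for averaged vectors, and with only numbers below 260 there were 0.

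Some differences changed sign. For averaged vectors Gria1 was 0.0030 by edgeR, 0.0019 by DESeq2, 0.031 without the shallow libraries, 0.028 both with library set as a term and with numbers below 260, and 0.041 by edgeR without the shallow libraries (-0.073 to 0.080 with 1 library left out). Grik2 was 0.0050 by edgeR, 0.021 without the shallow libraries and 0.020 by edgeR without them (-0.25 to 0.12). Without the shallow libraries Cacng2 was 0.039 and Cacng8 0.044, and by edgeR without them 0.023 and 0.036. With 1 library left out, Cacng3 ran from -0.14 to 0.096, Cacng8 from -0.28 to 0.0011, Grid1 ran from -0.14 to 0.067 and Neto1 from -0.025 to 0.23. Gria2 in averaged training was 0.024 with numbers below 260 (-0.14 to 0.072), Grin3a between vectors in untrained mice 0.064 there (-1.30 to 0.064), and Grm8 for training in control mice ran from -0.00041 to 1.41. The cause was not tested. No paired analysis was possible because the deposited columns carry no replicate number of the labels. In KD.255 a floor of 3 reads is 46.7 normalized read counts, so differences of members near that level were not detectable there.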
